A study of Rattus norvegicus with 60 samples.

Results

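Lysosomal hydrolases and proteins of the lysosomal membrane were followed as 1 set of 38 genes, listed by gene name. A probe was found for 34 of them among the 22523 probes of the array, with Atp6v1a under a former symbol, and none for Ctsa, Ctsf, Ctsz and Idua. The probe of Lipa, the acid lipase, was detected on 0 arrays, and the other 33 genes were detected widely enough to be tested in every region. Where a gene had more than 1 probe, the brightest was used. The RNA came from the hippocampus of F344BN rats, F1 hybrids of the Fischer 344 and Brown Norway strains, with no other allele or treatment named in the labels. Adult rats of 12 months were compared with aged rats of 24 months, which the labels divide into intact and impaired without saying by which measure. For CA1, CA3 and dentate gyrus (DG) there were 4 arrays in each of these groups. For whole hippocampus there were 6 arrays of adult rats, and 9 each of intact and of impaired rats.

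The lysosome is the acidic compartment in which cells break down proteins, glycans and lipids delivered by endocytosis and autophagy. Its proton pump keeps the lumen acidic, soluble hydrolases and their activator proteins cut the cargo, and membrane proteins export the products and hold the enzymes inside. In brain, inherited loss of many of these enzymes causes storage disease of neurons, and microglia, the phagocytes of the tissue, are rich in several of the cathepsins.

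Promoters were read for the genes on which the results turn, because many lysosomal genes carry the CLEAR element, a binding site of the transcription factor TFEB built around the letters CACGTG. The sequences are the 250 bases before the transcription start of RefSeq's table on build GRCr8, written 5′ to 3′ on the gene's strand, with CACGTG in capitals. Npc2 lies at chr6:110149246-110149495, minus strand, Ctsc at chr1:151440799-151441048, plus strand, Cd63 at chr7:1921894-1922143, plus strand, Ctsd at chr1:206968822-206969071, minus strand, and Lamp1 at chr16:83075064-83075313, minus strand. For Ctsc, Cd63 and Lamp1 the start used by the table lies inside the annotated span of the gene. Npc2, Ctsc and Cd63 are shown because they passed the threshold in aged against adult rats, and Ctsd and Lamp1 because they hold more than 1 copy of the motif in the 250 bases shown.
Npc2: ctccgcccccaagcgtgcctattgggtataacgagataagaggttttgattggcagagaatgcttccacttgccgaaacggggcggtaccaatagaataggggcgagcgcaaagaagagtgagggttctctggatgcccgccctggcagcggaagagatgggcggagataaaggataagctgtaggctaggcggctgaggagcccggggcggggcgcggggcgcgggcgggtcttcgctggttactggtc
Ctsc: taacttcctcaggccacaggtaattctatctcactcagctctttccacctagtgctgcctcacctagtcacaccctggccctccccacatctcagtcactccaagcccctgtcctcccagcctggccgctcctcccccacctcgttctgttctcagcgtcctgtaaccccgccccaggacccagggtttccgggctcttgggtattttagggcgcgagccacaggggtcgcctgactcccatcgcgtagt
Cd63: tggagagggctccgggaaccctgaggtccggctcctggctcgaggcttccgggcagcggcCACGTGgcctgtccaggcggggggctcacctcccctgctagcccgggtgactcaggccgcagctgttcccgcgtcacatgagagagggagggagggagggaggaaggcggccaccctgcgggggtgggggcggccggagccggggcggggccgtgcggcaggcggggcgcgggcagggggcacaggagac
Ctsd: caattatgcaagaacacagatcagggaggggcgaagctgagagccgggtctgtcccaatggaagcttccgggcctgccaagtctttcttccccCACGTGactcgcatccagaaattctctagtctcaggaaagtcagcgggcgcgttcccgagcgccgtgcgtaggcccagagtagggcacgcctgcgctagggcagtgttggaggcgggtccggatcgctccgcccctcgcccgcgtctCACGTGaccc
Lamp1: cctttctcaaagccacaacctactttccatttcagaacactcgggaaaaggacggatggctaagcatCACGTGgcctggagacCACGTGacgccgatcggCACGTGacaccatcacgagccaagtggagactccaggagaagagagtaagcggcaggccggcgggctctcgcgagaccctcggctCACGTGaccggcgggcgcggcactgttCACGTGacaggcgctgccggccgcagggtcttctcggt

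The table held promoters for 31 of the 38 genes, each taken from 250 bases before to 50 after the start. CACGTG stood in 10 of these (32.3%), against 1380 of all 18999 rat promoters of that length (7.26%). The longer form TCACGTGA, which contains the core, stood in 5 (16.1%, against 1.1% of all), and a still longer form of the CLEAR element, which contains both, in 1 (3.2%, against 0.35% of all). Each motif is its own reverse complement, so 1 strand covers both. Lamp1 held 5 copies and Ctsd 2, the nearer of the Ctsd copies 10 bases before the start, and Cd63 held 1 copy 190 bases before it. Npc2 and Ctsc held none of these letters in this window. The genes past the threshold therefore included 1 with the motif and 2 without it.

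All values are log2 intensities after background correction and quantile normalization, and all differences are on that log2 scale with their standard error. A gene was called when its adjusted p-value from limma, corrected over all tested probes of the region, was under 0.05. The number of arrays and the spread between them limit precision. Each subregion had 4 arrays per group. Yet the standard error of Npc2, aged against adult, was 0.25 in CA1, 0.06 in CA3 and 0.09 in DG. The counts of calls are therefore not equally sensitive between regions. Between 40.6% and 47.2% of probes were detected on 59 arrays, and 22.2% on CA1 adult replicate 4. That array had a median correlation of 0.73 with the other CA1 arrays, where the other 59 had between 0.956 and 0.994 with those of their region, and 18 of the 34 lysosomal probes were detected on it against 32 or 33 elsewhere. Differences between aged and adult rats in CA1 are therefore given with and without it. Of 10 measured markers of the pyramidal or granule neurons of a subregion, 9 were highest in their own, with Wfs1 at 9.70 in CA1, 6.59 in CA3 and 5.90 in DG. Dkk3, listed for CA1, was highest in CA3. CA1, CA3 and DG were hybridized on 1 slide each, with the 3 groups in separate blocks of positions, so that position on the slide and group cannot be told apart there. In whole hippocampus the groups were spread over 2 slides. Because no label says that samples came from separate animals, a p-value here speaks of the spread between samples alone, which may be technical.

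In aged rats, the carrier protein Npc2 rose in CA3 and in whole hippocampus, and the protease Ctsc and the tetraspanin Cd63 rose in CA3. No member was called lower, where 0% of all probes were in CA1, 0.132% in CA3, 0% in DG and 0.0289% in whole hippocampus. In CA3, 3 of 33 members were called higher, where 0.78% of all 9873 probes were. In whole hippocampus 1 of 33 was called higher, where 0.289% of all 10370 probes were. In CA1 0 members were called by limma, where 0.0501% of 9978 probes were, and in DG 0, where 0.0296% of 10152 were. With 1 fit over all 60 arrays the CA1 count was 15, where 1985 of all 9978 probes were called. It was 1, Npc2, when CA1 adult replicate 4 was left out of that fit, where 67 of all probes were called. At an unadjusted p under 0.05 the members higher in aged rats numbered 8 in CA1 (3.97% of all probes were), 8 in CA3 (7.32%), 0 in DG (1.18%) and 7 in whole hippocampus (3.54%). Members lower at that level numbered 0 in CA1 (2.1% of all probes were), 0 in CA3 (6.49%), 0 in DG (1.24%) and 0 in whole hippocampus (2.12%).

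Most members had small differences above 0. Over all probes 50.6% were above 0 in CA3, 47.5% in whole hippocampus, 55.4% in DG and 56.9% in CA1. In CA3, 26 were above 0 and 7 below, with a median of 0.11 against 0.0017 for all probes tested. In whole hippocampus 25 were above and 8 below, with a median of 0.08 against -0.0061. In DG 21 were above and 12 below, with a median of 0.05 against 0.02. In CA1 26 were above and 7 below, and the median was 0.52 against 0.06, but without CA1 adult replicate 4 it was 0.05 against 0.008, with 22 above and 11 below. The members came from 1 tissue extract per array and are not replicates of one another. In pieces of tissue such as these, a change in the number of cells of a type and a change in RNA per cell cannot be told apart.

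**Figure D1:**
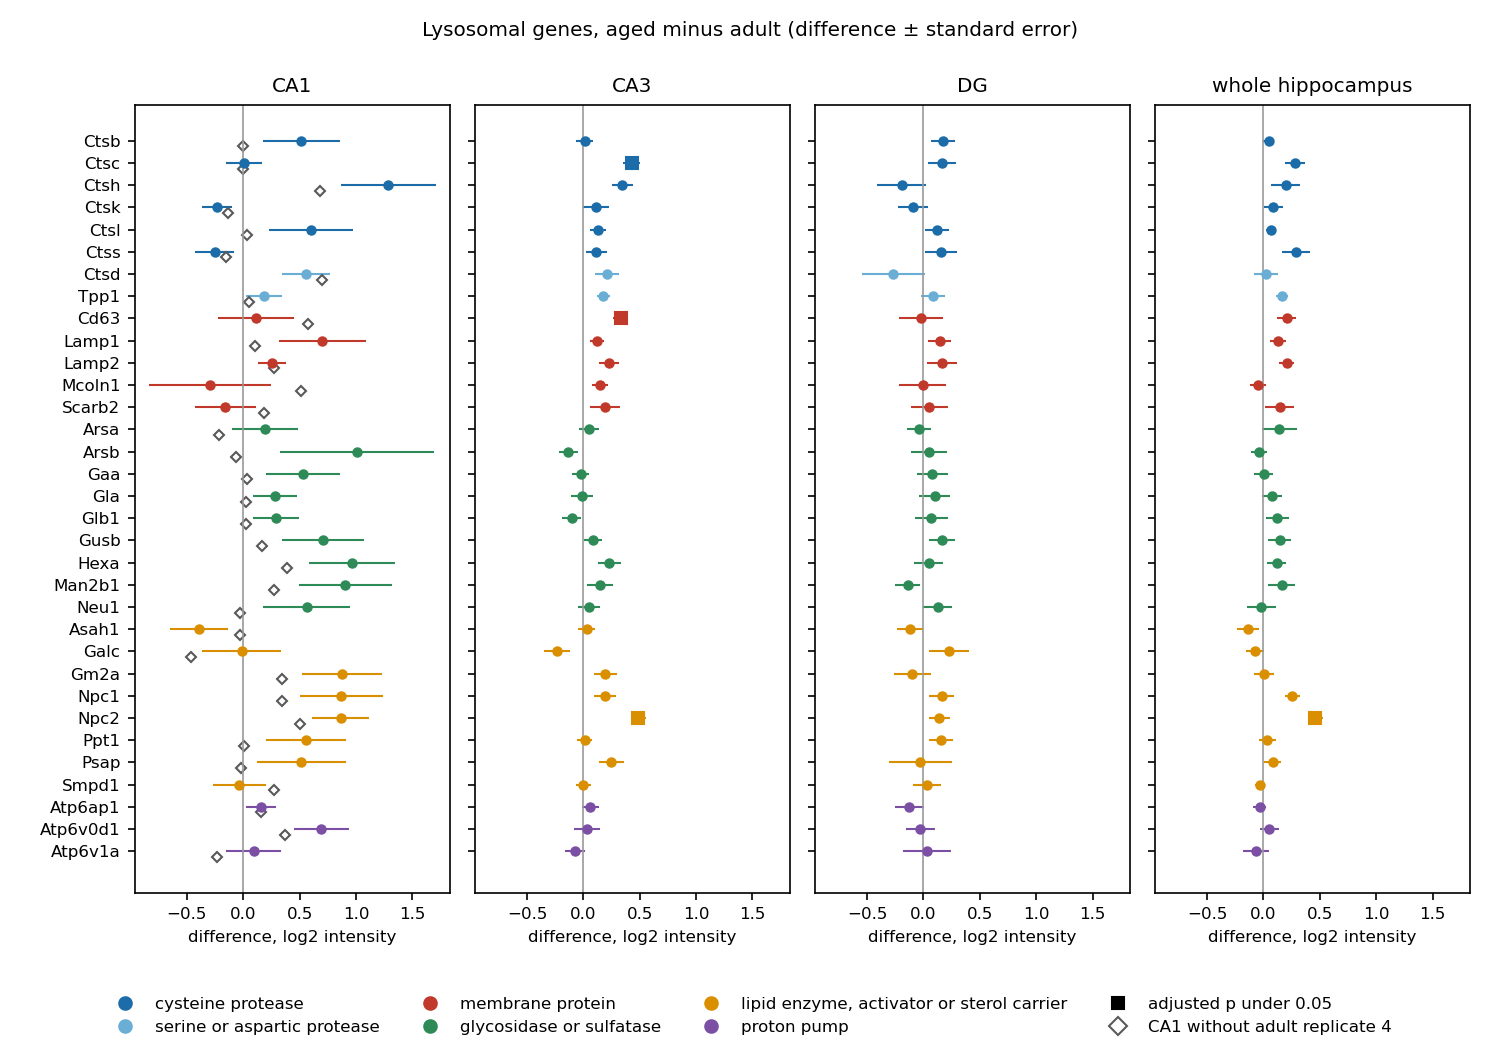
Difference between aged and adult rats (log2 intensity, x axis) for the 33 tested lysosomal genes (rows), in CA1, CA3, DG and whole hippocampus; points are the limma estimate, lines the standard error, colours the role of the protein, squares the genes past the threshold, and open diamonds the CA1 estimate without adult replicate 4. The squares are Npc2, Ctsc and Cd63 in CA3 and Npc2 in whole hippocampus, and the CA1 median is 0.52 for the points and 0.05 for the diamonds.

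Npc2 is the soluble carrier that binds cholesterol in the lysosomal lumen and passes it to the membrane protein Npc1. In CA3 it was at 11.74, 11.72, 11.96 and 11.77 in the adult arrays, 12.25, 12.37, 12.39 and 12.34 in the intact arrays and 12.27, 12.20, 12.18 and 12.27 in the impaired arrays. All 8 aged arrays lay above all 4 adult arrays, and the difference was 0.49 ± 0.06 (adjusted p = 0.00184, limma, 1.4-fold). In whole hippocampus it ran from 11.72 to 11.96 (median 11.89) in the adult arrays, from 12.14 to 12.56 (median 12.29) in the intact arrays and from 12.17 to 12.72 (median 12.30) in the impaired arrays. The aged arrays again lay above every adult array, higher in 18 of 18 aged arrays, and the difference was 0.46 ± 0.07 (adjusted p = 0.000416, limma, 1.38-fold). In 1 fit over all 60 arrays, which shares 1 estimate of the spread, the CA3 call was lost (adjusted p = 0.285) and the call in whole hippocampus held. With CA1 adult replicate 4 left out of that fit, the CA3 call held as well (adjusted p = 6.49e-05). Within slide 2 the difference was 0.42 (adjusted p = 0.193) and within slide 4 it was 0.49 (adjusted p = 0.453), each with fewer arrays. Npc2 was the single member of 33 whose groups did not overlap in whole hippocampus, where this held for 0.174% of all probes in the upward direction.

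In CA1, Npc2 stood at 12.08, 11.85, 12.09 and 10.57 in the adult arrays, 12.45, 12.48, 12.74 and 12.51 in the intact arrays and 12.49, 12.39, 12.46 and 12.58 in the impaired arrays. The adult and aged groups did not overlap there either, and adult replicate 4 was far below the other adult arrays. The difference was 0.86 ± 0.25 with that array (adjusted p = 0.63) and 0.51 ± 0.10 without it (adjusted p = 0.0849), and it was not called by limma either way. In DG, Npc2 stood at 11.40, 11.61, 11.44 and 11.57 in the adult arrays, 11.55, 11.62, 11.73 and 11.58 in the intact arrays and 11.64, 11.59, 11.67 and 11.79 in the impaired arrays. The DG groups overlapped, and the difference of 0.14 ± 0.09 (higher in 8 of 8 aged arrays, adjusted p = 1) was not called. Npc1, which carries the cholesterol out through the membrane, ran from 6.94 to 7.35 (median 7.11) in the adult arrays, from 7.24 to 7.70 (median 7.38) in the intact arrays and from 7.17 to 7.46 (median 7.30) in the impaired arrays in whole hippocampus. Its difference there was 0.26 ± 0.07 (higher in 18 of 18, adjusted p = 0.138), with overlapping groups, and the dimmer of its 2 probes gave 0.27 ± 0.13 (adjusted p = 0.863). In CA3 the 2 probes gave 0.19 ± 0.09 and 0.0037 ± 0.11, so they did not show the same size.

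**Figure D2:**
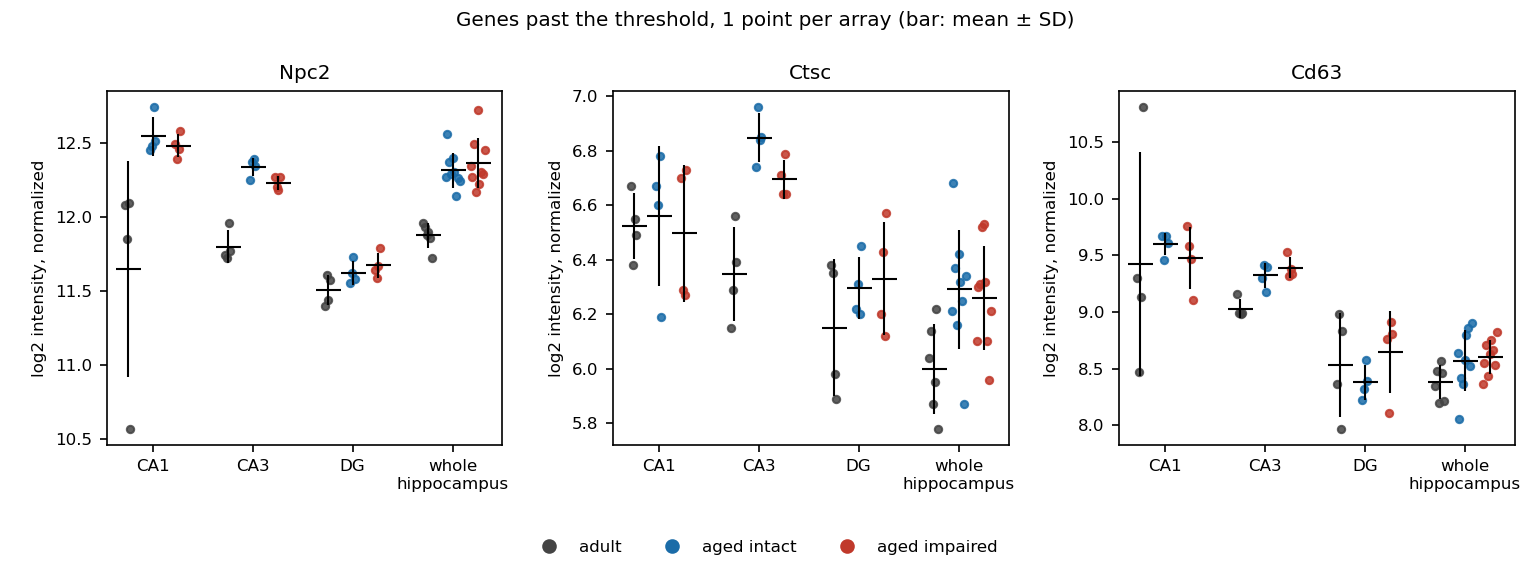
Log2 intensity (y axis) of Npc2, Ctsc and Cd63 on each array, by region (x axis) and group, with 4 arrays per group in CA1, CA3 and DG and 6 adult, 9 intact and 9 impaired arrays in whole hippocampus; bars are the group mean ± SD. In CA3 the aged arrays of the 3 genes lie above all adult arrays, and the low Npc2 and high Cd63 points of the CA1 adult group are replicate 4.

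Ctsc, or cathepsin C, is a dipeptidyl peptidase that activates serine proteases of immune cells. In CA3 it stood at 6.15, 6.29, 6.56 and 6.39 in the adult arrays, 6.74, 6.96, 6.84 and 6.85 in the intact arrays and 6.71, 6.64, 6.79 and 6.64 in the impaired arrays. The aged arrays lay above every adult array, and Ctsc rose by 0.43 ± 0.08 (adjusted p = 0.0171, limma, 1.34-fold). The call was lost without CA3 adult replicate 1, 2 or 4 (adjusted p = 0.0615, 0.069 and 0.0603) and in the fit over all arrays, with CA1 adult replicate 4 (adjusted p = 0.342) or without it (adjusted p = 0.137). In whole hippocampus Ctsc ran from 5.78 to 6.22 (median 6.00) in the adult arrays, from 5.87 to 6.68 (median 6.32) in the intact arrays and from 5.96 to 6.53 (median 6.30) in the impaired arrays, with overlapping groups and a difference of 0.28 ± 0.09 (higher in 16 of 18, adjusted p = 0.414). In CA1 and DG the differences were 0.00 ± 0.16 and 0.17 ± 0.13, neither of them called, and in CA1 without adult replicate 4 it was -0.01 ± 0.14.

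Cd63 is a tetraspanin of late endosomes, lysosomes and the vesicles they release. In CA3 it stood at 9.16, 8.99, 8.98 and 8.99 in the adult arrays, 9.30, 9.42, 9.18 and 9.40 in the intact arrays and 9.53, 9.32, 9.38 and 9.34 in the impaired arrays. The lowest aged array lay just above the highest adult array, and Cd63 rose by 0.33 ± 0.07 (adjusted p = 0.045, limma, 1.26-fold). This call was near the threshold. It was lost without any 1 of 10 of the 12 CA3 arrays, and held without adult replicate 1 or intact replicate 3. In the fit over all arrays its adjusted p was 1, and 0.726 without CA1 adult replicate 4. In CA1, Cd63 differed by 0.11 ± 0.34, with adult replicate 4 at 10.81 as the highest array, and by 0.57 ± 0.17 without that array (adjusted p = 0.176). The difference was -0.02 ± 0.19 in DG and 0.21 ± 0.08 in whole hippocampus, neither called.

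Members whose aged arrays all lay above the adult arrays numbered 5 of 33 in CA3, where 1.65% of all probes did so. They were the called genes Npc2, Ctsc and Cd63, with Ctsh and Tpp1. Ctsh, an aminopeptidase of the cathepsin family, stood at 7.39, 7.21, 7.59 and 7.60 in the adult arrays, 7.77, 8.11, 7.98 and 7.72 in the intact arrays and 7.80, 7.65, 7.68 and 7.63 in the impaired arrays in CA3, a difference of 0.34 ± 0.09 (adjusted p = 0.114). Tpp1, the tripeptidyl peptidase missing in a childhood form of neuronal ceroid lipofuscinosis, stood at 10.58, 10.68, 10.66 and 10.59 in the adult arrays, 10.81, 10.83, 10.69 and 10.79 in the intact arrays and 10.84, 10.84, 10.76 and 10.89 in the impaired arrays, a difference of 0.18 ± 0.06 (adjusted p = 0.193). Neither passed the threshold. In DG this held for 0 members and 0.158% of all probes.

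Among the cysteine proteases, all 6 measured members were above 0 in CA3 and in whole hippocampus, 4 were in CA1, or 2 without adult replicate 4, and 4 in DG. Ctsb, cathepsin B, is one of the abundant lysosomal proteases of brain, and in CA3 it stood at 12.45, 12.79, 12.72 and 12.55 in the adult arrays, 12.71, 12.54, 12.69 and 12.65 in the intact arrays and 12.49, 12.65, 12.68 and 12.70 in the impaired arrays. These groups overlapped almost fully (0.01 ± 0.08, adjusted p = 0.962). In DG, where Ctsb had the smallest p of the members, it stood at 12.41, 12.33, 12.36 and 12.16 in the adult arrays, 12.45, 12.50, 12.52 and 12.65 in the intact arrays and 12.20, 12.67, 12.40 and 12.50 in the impaired arrays, a difference of 0.17 ± 0.10 (higher in 7 of 8, adjusted p = 1). In CA1 it stood at 12.80, 12.75, 12.52 and 10.62 in the adult arrays, 12.74, 12.71, 12.67 and 12.43 in the intact arrays and 12.85, 12.70, 12.59 and 12.81 in the impaired arrays, with adult replicate 4 alone below the rest, and the difference went from 0.52 ± 0.34 to -0.00 ± 0.10 without that array. In whole hippocampus Ctsb ran from 12.54 to 12.78 (median 12.64) in the adult arrays, from 12.63 to 12.81 (median 12.74) in the intact arrays and from 12.62 to 12.76 (median 12.67) in the impaired arrays, a difference of 0.05 ± 0.05.

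Ctss, cathepsin S, works at neutral pH as well and trims the invariant chain of class II molecules in antigen-presenting cells. In whole hippocampus Ctss ran from 11.83 to 12.43 (median 12.34) in the adult arrays, from 12.26 to 13.17 (median 12.54) in the intact arrays and from 12.01 to 13.04 (median 12.42) in the impaired arrays. The groups overlapped, and the difference was 0.29 ± 0.12 (higher in 17 of 18, adjusted p = 0.772). In CA3 it stood at 12.45, 12.08, 12.15 and 12.20 in the adult arrays, 12.20, 12.35, 12.19 and 12.36 in the intact arrays and 12.48, 12.59, 12.15 and 12.33 in the impaired arrays, and in DG at 11.91, 11.66, 11.91 and 12.25 in the adult arrays, 12.22, 11.87, 12.07 and 12.01 in the intact arrays and 12.59, 11.97, 12.00 and 11.99 in the impaired arrays. Both differences were small beside their errors, 0.11 ± 0.09 in CA3 and 0.16 ± 0.14 in DG. In CA1 it stood at 12.34, 12.80, 12.70 and 13.02 in the adult arrays, 12.25, 12.34, 12.52 and 12.51 in the intact arrays and 12.75, 12.55, 12.05 and 12.74 in the impaired arrays, and the difference of -0.25 ± 0.17 pointed the other way, as it did without adult replicate 4 (-0.15 ± 0.15).

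Ctsh had the highest difference of the members in CA1. It stood there at 7.84, 6.81, 7.57 and 4.98 in the adult arrays, 8.21, 8.09, 8.32 and 8.21 in the intact arrays and 8.21, 8.01, 7.92 and 7.72 in the impaired arrays. The adult group spanned the widest range, from replicate 4 at the bottom, and the highest adult array overlapped the aged ones. The difference was 1.29 ± 0.42 with all arrays (adjusted p = 0.63) and 0.68 ± 0.18 without adult replicate 4 (adjusted p = 0.168). Ctsl, another endopeptidase, differed by 0.60 ± 0.38 in CA1, 0.13 ± 0.07 in CA3, 0.12 ± 0.11 in DG and 0.07 ± 0.04 in whole hippocampus, and by 0.03 ± 0.11 in CA1 without adult replicate 4. Ctsk, a collagen-degrading protease best known from osteoclasts, differed by -0.24 ± 0.13, 0.11 ± 0.12, -0.09 ± 0.13 and 0.09 ± 0.08 in the same order, with -0.14 ± 0.09 in CA1 without that array, and no difference of Ctsl or Ctsk was called.

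Ctsd, cathepsin D, is the main aspartic protease of the lysosome. In CA1 it stood at 8.29, 7.64, 8.26 and 8.63 in the adult arrays, 9.02, 8.69, 8.93 and 8.98 in the intact arrays and 8.53, 8.94, 8.93 and 8.08 in the impaired arrays. The groups overlapped through 2 of the impaired arrays, and the difference was 0.56 ± 0.21 (higher in 7 of 8, adjusted p = 0.63) and 0.70 ± 0.19 without adult replicate 4 (adjusted p = 0.168). In CA3 it stood at 8.71, 8.45, 8.52 and 8.98 in the adult arrays, 8.91, 9.06, 8.77 and 8.84 in the intact arrays and 9.00, 8.83, 8.62 and 8.95 in the impaired arrays, a difference of 0.21 ± 0.10. In DG it stood at 7.53, 8.58, 8.12 and 8.90 in the adult arrays, 7.36, 7.93, 8.18 and 7.76 in the intact arrays and 9.09, 7.69, 8.20 and 7.90 in the impaired arrays, and it had the lowest difference of the members there, -0.27 ± 0.28 (adjusted p = 1). In both regions the adult and aged arrays overlapped. In whole hippocampus Ctsd ran from 6.98 to 7.78 (median 7.31) in the adult arrays, from 6.85 to 7.67 (median 7.28) in the intact arrays and from 7.01 to 7.95 (median 7.42) in the impaired arrays, a difference of 0.02 ± 0.10, and Tpp1 differed there by 0.16 ± 0.05 (higher in 17 of 18, adjusted p = 0.414).

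Lamp1 and Lamp2, the abundant glycoproteins that line the lysosomal membrane, were not called in any region. Lamp2, which also takes up proteins in chaperone-mediated autophagy, stood in CA1 at 10.74, 10.63, 10.59 and 10.74 in the adult arrays, 11.27, 10.95, 11.03 and 10.87 in the intact arrays and 10.77, 10.77, 10.92 and 10.86 in the impaired arrays. Every aged array lay just above every adult array there (0.25 ± 0.12, adjusted p = 0.63), and without adult replicate 4 the difference was 0.27 ± 0.10 (adjusted p = 0.186). In CA3 Lamp2 stood at 10.36, 10.62, 10.83 and 10.54 in the adult arrays, 10.89, 11.02, 10.95 and 10.77 in the intact arrays and 10.90, 10.65, 10.65 and 10.67 in the impaired arrays, a difference of 0.23 ± 0.09. In whole hippocampus it ran from 10.46 to 10.75 (median 10.67) in the adult arrays, from 10.67 to 11.05 (median 10.91) in the intact arrays and from 10.51 to 11.19 (median 10.71) in the impaired arrays, a difference of 0.21 ± 0.07 (higher in 16 of 18, adjusted p = 0.414). The adult and aged groups overlapped in both. In DG it stood at 10.15, 10.37, 9.81 and 10.04 in the adult arrays, 10.22, 10.25, 10.13 and 10.29 in the intact arrays and 9.99, 10.10, 10.51 and 10.58 in the impaired arrays, with overlapping groups and a difference of 0.17 ± 0.14.

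Lamp1 stood in CA3 at 12.60, 12.71, 12.71 and 12.64 in the adult arrays, 12.87, 12.94, 12.79 and 12.81 in the intact arrays and 12.63, 12.77, 12.83 and 12.64 in the impaired arrays. The 4 intact arrays and 2 of the 4 impaired arrays were above all adult arrays (0.12 ± 0.06 for aged against adult, adjusted p = 0.41). In CA1 it stood at 12.79, 12.67, 12.74 and 10.35 in the adult arrays, 12.89, 12.88, 12.95 and 12.69 in the intact arrays and 12.77, 12.76, 12.92 and 12.85 in the impaired arrays, and the difference fell from 0.70 ± 0.39 to 0.11 ± 0.09 when adult replicate 4 was left out. In DG it stood at 12.24, 12.51, 12.24 and 12.19 in the adult arrays, 12.43, 12.53, 12.35 and 12.45 in the intact arrays and 12.30, 12.33, 12.56 and 12.58 in the impaired arrays, a difference of 0.14 ± 0.10. Its groups overlapped in CA1 and in DG. In whole hippocampus Lamp1 ran from 12.59 to 12.78 (median 12.69) in the adult arrays, from 12.66 to 13.21 (median 12.83) in the intact arrays and from 12.56 to 12.95 (median 12.73) in the impaired arrays, a difference of 0.13 ± 0.07. Scarb2, which brings glucocerebrosidase to the lysosome, and Mcoln1, a calcium channel of its membrane, lay between -0.29 (Mcoln1 in CA1) and 0.19 (Scarb2 in CA3) over the 4 regions, with no call. Without adult replicate 4 the CA1 difference of Mcoln1 turned to 0.51 ± 0.20 (adjusted p = 0.205), and that of Scarb2 was 0.19 ± 0.15.

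The glycosidases and sulfatases, which strip sugars and sulfate from glycans and glycolipids, showed 0 calls among 9 measured members in each region. In CA3 5 were above 0 and 4 below, with a median of 0.05, and in whole hippocampus 7 were above and 2 below, with a median of 0.12. Hexa, the alpha subunit of beta-hexosaminidase, which degrades GM2 ganglioside, had the highest difference of the group in CA3. Hexa stood in CA1 at 9.21, 8.85, 9.00 and 6.72 in the adult arrays, 9.41, 9.48, 9.38 and 9.45 in the intact arrays and 9.26, 9.34, 9.62 and 9.32 in the impaired arrays. The aged arrays lay above all adult arrays, and the difference was 0.96 ± 0.38 (adjusted p = 0.63), or 0.39 ± 0.10 without adult replicate 4 (adjusted p = 0.169). In CA3 it stood at 8.85, 8.56, 8.80 and 8.77 in the adult arrays, 9.09, 9.35, 8.87 and 8.85 in the intact arrays and 9.15, 8.77, 8.94 and 8.80 in the impaired arrays, a difference of 0.23 ± 0.10. In DG it stood at 8.90, 9.02, 8.80 and 9.15 in the adult arrays, 8.63, 9.13, 8.94 and 8.90 in the intact arrays and 9.31, 8.77, 9.15 and 9.31 in the impaired arrays, a difference of 0.05 ± 0.13. The groups overlapped in both, as they did in whole hippocampus, where Hexa ran from 8.77 to 9.11 (median 8.90) in the adult arrays, from 8.81 to 9.47 (median 9.06) in the intact arrays and from 8.79 to 9.17 (median 8.95) in the impaired arrays (0.12 ± 0.08).

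Gusb, beta-glucuronidase, was among the 3 members with the smallest p in DG, where it stood at 6.44, 6.85, 6.70 and 6.97 in the adult arrays, 6.82, 6.78, 6.87 and 6.86 in the intact arrays and 7.23, 6.87, 6.87 and 6.98 in the impaired arrays. All 8 aged arrays were above the adult mean but the groups overlapped, and the difference was 0.17 ± 0.11 (adjusted p = 1). The other glycosidases and sulfatases were Gla, Glb1, Gaa, Man2b1 and Neu1, which release galactose, glucose, mannose or sialic acid, and Arsa and Arsb, which release sulfate. Their differences in CA3 lay between -0.13 (Arsb) and 0.15 (Man2b1), and in whole hippocampus between -0.04 (Arsb) and 0.16 (Man2b1). In DG Man2b1 was lowest of the group at -0.14, below the adult mean in 8 of 8 aged arrays.

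Of the enzymes and activators of lipid breakdown, Psap is the precursor of the saposins, which lift sphingolipids from membranes for their hydrolases. Psap stood in CA3 at 9.75, 10.28, 10.03 and 10.02 in the adult arrays, 10.30, 10.48, 10.15 and 9.99 in the intact arrays and 10.46, 10.39, 10.10 and 10.28 in the impaired arrays. The groups overlapped, with a difference of 0.25 ± 0.11 (higher in 7 of 8, adjusted p = 0.335). In CA1 it stood at 10.17, 10.12, 10.04 and 7.98 in the adult arrays, 10.71, 10.08, 9.69 and 9.77 in the intact arrays and 10.26, 10.44, 9.57 and 10.22 in the impaired arrays, and the difference of 0.52 ± 0.39 became -0.02 ± 0.21 without adult replicate 4. In DG it stood at 9.92, 9.34, 10.18 and 10.86 in the adult arrays, 10.45, 10.51, 9.87 and 9.85 in the intact arrays and 9.18, 10.03, 10.61 and 9.89 in the impaired arrays, a spread within the adult group that exceeded the difference of -0.03 ± 0.28. In whole hippocampus Psap ran from 10.66 to 11.03 (median 10.82) in the adult arrays, from 10.70 to 11.38 (median 10.90) in the intact arrays and from 10.67 to 11.01 (median 10.80) in the impaired arrays, with overlapping groups (0.08 ± 0.07).

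Galc, which splits the galactolipids of myelin, had the lowest difference of the members in CA3, -0.23 ± 0.12 (below the adult mean in 8 of 8 aged arrays, adjusted p = 0.392), and the highest in DG, 0.23 ± 0.18 (adjusted p = 1). Asah1, acid ceramidase, had the lowest in CA1, -0.39 ± 0.26, and in whole hippocampus, -0.14 ± 0.10. In CA1 the Asah1 value moved to -0.03 ± 0.11 without adult replicate 4. The lowest was then Galc at -0.46 ± 0.21, whose probe was detected on 9 of the 12 CA1 arrays. Gm2a, the activator that presents GM2 ganglioside to hexosaminidase, was at 0.87 ± 0.36 in CA1 and 0.34 ± 0.12 without that array. Smpd1, acid sphingomyelinase, and Ppt1, which removes palmitate from proteins, lay between -0.03 (Smpd1 in CA1) and 0.55 (Ppt1 in CA1) over the 4 regions. Both ends moved without CA1 adult replicate 4, where Smpd1 was at 0.27 ± 0.11 (adjusted p = 0.203) and Ppt1 at 0.01 ± 0.09.

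Of the proton pump, 3 members were measured and 0 were called in each of the 4 regions. Atp6v0d1, a subunit of the sector that lies in the membrane, was among the 3 members with the smallest p in CA1, where it stood at 10.52, 9.95, 10.16 and 8.91 in the adult arrays, 10.64, 10.51, 10.57 and 10.51 in the intact arrays and 10.62, 10.71, 10.69 and 10.40 in the impaired arrays. The adult replicate 1 array lay within the aged range, and the difference of 0.69 ± 0.24 (adjusted p = 0.63) was 0.37 ± 0.12 without adult replicate 4 (adjusted p = 0.178). In CA3 it was 0.03 ± 0.12, and its second probe was detected on 0 arrays. Atp6v1a, the catalytic subunit that splits ATP, and Atp6ap1, an accessory subunit, lay between -0.13 (Atp6ap1 in DG) and 0.15 (Atp6ap1 in CA1). Without CA1 adult replicate 4, Atp6v1a turned to -0.24 ± 0.12 there (adjusted p = 0.274) and Atp6ap1 was at 0.16 ± 0.11.

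Without CA1 adult replicate 4, 12 of 33 members in CA1 were higher and 1 was lower at an unadjusted p under 0.05, where 1008 of all probes (10.1%) were higher and 1008 lower, and 0 members were called by limma. The members whose 8 aged arrays all lay above the remaining 3 adult arrays were Npc2, Hexa, Lamp2 and Gm2a, as with all arrays, 4 of 33 where 1.42% of all probes did so. With all arrays this share was 0.762%. Membrane proteins were all above 0, 5 of 5, where 3 of 5 were with the array included.

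Intact and impaired aged rats did not differ past the threshold in any member. By limma 0 of 33 were called in each of the 4 regions, where 0% of all probes were. Before adjustment, 1 member had a p under 0.05 in whole hippocampus (5.79% of all probes did), 0 in CA1 (0.331%), 0 in CA3 (5.06%) and 0 in DG (1.93%). The errors and p-values of CA1 come from the fit of its 3 groups and so include the spread of adult replicate 4. The 0 in CA1 is therefore not read as absence of a difference. Without that array 0 members were called there as well. Medians over the members were 0.03 in CA1, -0.02 in CA3, 0.05 in DG and -0.04 in whole hippocampus. These medians depended on single arrays and on the processing, and the sign turned in CA1 without intact replicate 4 (-0.02), in CA3 without intact replicate 1 (0.004) and in DG with the processed values (-0.03). Over all probes the medians were -0.0088, -0.0012, 0.0083 and 0.0074, in the same order of regions. With the processed values the DG median over all probes was -0.05, lower than that of the members. The members of each region with the smallest p are given with their arrays.

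In CA1, Galc was detected on 9 of the 12 arrays. It stood at 5.80, 6.18, 5.67 and 5.65 in the intact arrays and 6.28, 6.41, 5.96 and 7.13 in the impaired arrays. All 4 impaired arrays were above the intact mean, with overlap, and impaired replicate 4 was highest (0.62 ± 0.41, adjusted p = 1). Lamp2 differed there by -0.20 ± 0.14 (adjusted p = 1), with the 4 impaired arrays below the intact mean. Ctsd was at -0.28 ± 0.25 there (adjusted p = 1), with impaired replicate 4 the lowest aged array.

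In CA3, Atp6v1a stood at 10.76, 10.63, 11.04 and 10.74 in the intact arrays and 10.77, 11.06, 11.12 and 11.05 in the impaired arrays, a difference of 0.21 ± 0.10 (adjusted p = 0.961). Ctsl stood at 11.63, 11.72, 11.64 and 11.80 in the intact arrays and 11.37, 11.54, 11.55 and 11.65 in the impaired arrays, with all impaired arrays below the intact mean and 1 overlapping (-0.17 ± 0.08, adjusted p = 0.961). Ctsh was at -0.21 ± 0.11 (adjusted p = 0.961). Of the genes called with age in CA3, Npc2 differed between impaired and intact by -0.11 ± 0.07, Ctsc by -0.15 ± 0.09 and Cd63 by 0.07 ± 0.08.

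In DG, Ctsh had the highest difference. It is given above for CA3 and CA1, and in DG it stood at 6.28, 7.05, 7.03 and 7.09 in the intact arrays and 7.61, 6.83, 7.52 and 7.52 in the impaired arrays. Intact replicate 1 and impaired replicate 2 were each the lowest of their group by a wide gap, and the groups overlapped (0.51 ± 0.25, adjusted p = 0.894). Galc stood at 6.77, 6.66, 6.44 and 6.50 in the intact arrays and 5.89, 6.82, 5.85 and 6.35 in the impaired arrays, a difference of -0.36 ± 0.20 in the opposite direction to CA1. Smpd1 stood at 10.59, 10.71, 10.93 and 10.70 in the intact arrays and 11.05, 10.78, 11.02 and 11.08 in the impaired arrays, a difference of 0.25 ± 0.14. These adjusted p-values were all 0.894.

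In whole hippocampus, Ctsl ran from 11.59 to 11.82 (median 11.74) in the intact arrays and from 11.68 to 11.93 (median 11.82) in the impaired arrays, a difference of 0.10 ± 0.04. Npc1 ran from 7.24 to 7.70 (median 7.38) in the intact arrays and from 7.17 to 7.46 (median 7.30) in the impaired arrays, a difference of -0.13 ± 0.07. Atp6v1a ran from 11.08 to 11.93 (median 11.35) in the intact arrays and from 10.54 to 11.41 (median 11.30) in the impaired arrays, a difference of -0.21 ± 0.11. The groups overlapped for each of these genes, with an adjusted p of 0.639. Npc2 differed by 0.05 ± 0.07 (adjusted p = 0.754).

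**Figure D3:**
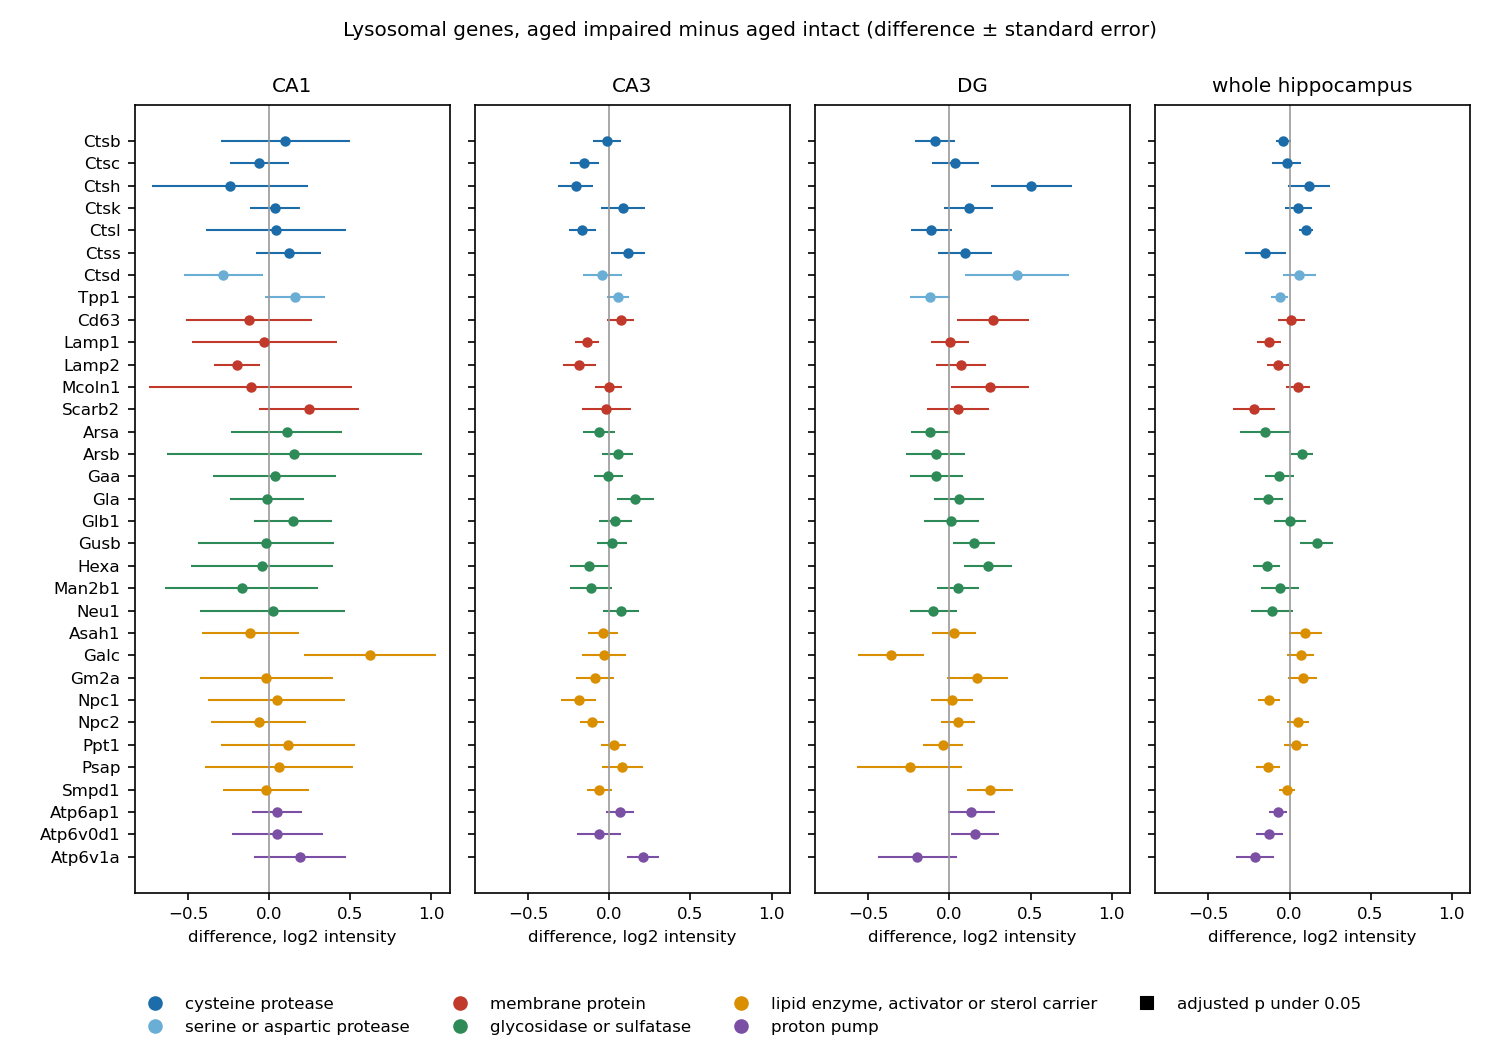
Difference between impaired and intact aged rats (log2 intensity, x axis) for the 33 tested lysosomal genes (rows), in CA1, CA3, DG and whole hippocampus; points are the limma estimate, lines the standard error and colours the role of the protein. No gene is past the threshold, and the widest lines are in CA1 and DG. The CA1 lines include the spread of CA1 adult replicate 4.

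Whether the change with age differed between CA1, CA3 and DG was tested in 1 fit of their 36 arrays. The F test called 0 of the members and 1 of 10654 probes (0.00939%). At an unadjusted p under 0.05 it found 7 members, Ctsh, Npc2, Atp6v0d1, Man2b1, Gm2a, Hexa and Ctsd, where 6.96% of all probes were. The smallest p was that of Ctsh (adjusted p = 0.656, limma), whose change differed by -0.94 ± 0.41 between CA3 and CA1 and by -1.48 ± 0.41 between DG and CA1. Npc2 followed (adjusted p = 0.661, limma), at -0.38 ± 0.22 and -0.72 ± 0.22 in the same order. CA1 adult replicate 4 is in this fit and was the lowest CA1 array for 6 of these 7 members, all but Ctsd. Without that array the F test called 0 members and 2 of 10654 probes, and the smallest adjusted p of a member was 0.391 (limma). Which of the 7 members kept an unadjusted p under 0.05 was not recorded. In the fit of CA1 alone without that array, the change was 0.51 ± 0.10 for Npc2 and 0.68 ± 0.18 for Ctsh. In the same order it was 0.49 ± 0.06 and 0.34 ± 0.09 in CA3, and 0.14 ± 0.09 and -0.19 ± 0.21 in DG.

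The level of each gene was set against its own level in the other regions, as a description, since subregion and slide cannot be told apart. Ctsk differed most, at 9.54 ± 0.18 (SD, n = 12) in CA1, 8.59 ± 0.20 in CA3, 7.56 ± 0.20 in DG and 8.57 ± 0.19 in whole hippocampus (n = 24). The 3 subregions did not overlap, with CA1 above CA3 and CA3 above DG on every array. Scarb2 was at 8.80 ± 0.43 in CA1 (8.70 ± 0.26 without adult replicate 4), 8.65 ± 0.24 in CA3 and 7.91 ± 0.27 in DG, and Lamp2 at 10.85 ± 0.18, 10.74 ± 0.19 and 10.20 ± 0.22. Both were lowest in DG, with arrays of neighbouring subregions overlapping.

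Over the 34 genes with a probe, and without CA1 adult replicate 4, the lowest mean was in DG for 22, in CA1 for 6 and in CA3 for 6. The highest was in CA1 for 16, in CA3 for 16 and in DG for 2. These counts include Lipa, which was not detected, as lowest in CA1 and highest in CA3. The lowest subregion stood apart from both others on every array for 3 genes, Ctsk, Lamp1 and Npc1, each of them lowest in DG, and the highest stood apart for Ctsk alone. The shares over all probes were not computed, so these counts are not read as a trait of the set. Npc2 was at 12.37 ± 0.26 in CA1 without that array (n = 11), 12.12 ± 0.25 in CA3, 11.60 ± 0.11 in DG and 12.22 ± 0.24 in whole hippocampus, and its neighbours in that order overlapped. At the other end, Arsb, arylsulfatase B, lay at 8.99 ± 0.17 in CA1 without that array, 9.09 ± 0.14 in CA3 and 9.08 ± 0.25 in DG, within the spread of its arrays.

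**Figure D4:**
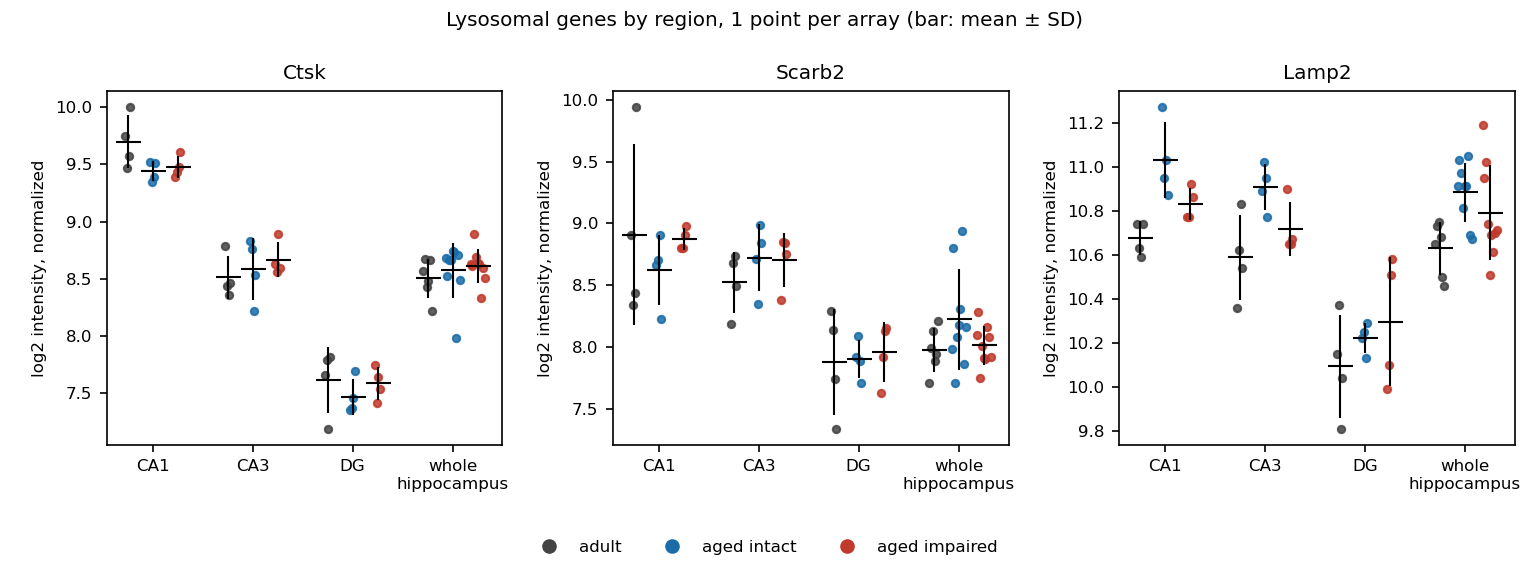
Log2 intensity (y axis) of Ctsk, Scarb2 and Lamp2 on each array, by region (x axis) and group, with the bar at the group mean ± SD. Ctsk falls from CA1 through CA3 to DG without overlap, and Scarb2 and Lamp2 are lowest in DG with overlap.

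The rest of the pathway was read from lists of genes outside the set. Of other lysosomal hydrolases, activators and membrane proteins, 28 of 37 measured were above 0 in CA3, where 50.6% of all probes were. Their median was 0.08, and 3 were called higher and 0 lower. Over all probes 0.78% were called higher and 0.132% lower. The 3 called genes were Cd68, a lysosomal glycoprotein of phagocytes, Laptm5, a lysosomal membrane protein of blood-lineage cells (0.50 ± 0.08, adjusted p = 0.00617), and Ctse, an aspartic protease of endosomes (0.54 ± 0.10, adjusted p = 0.0171). The probe of Cd68 passed detection on 7 of 8 aged arrays but on 0 of the 4 adult ones. It entered the test through the aged arrays alone, which favours a rise, so its call is not read as support. Its level was at least 1.24-fold higher in aged arrays (adjusted p = 0.00105, limma), with measured means of 5.20 in adult and 6.02 in aged arrays. Cd68 was also detected on 0 adult arrays in CA1 (4 aged) and in whole hippocampus (8 aged). In the other 3 regions 0 of this list were called, with medians of 0.13 in CA1 over 36 genes (0.10 without adult replicate 4), 0.04 in DG over 35 and 0.05 in whole hippocampus over 38, where Laptm5 was at 0.50 ± 0.12 (adjusted p = 0.0782).

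The remaining lists of the pathway had 0 members called in either direction in each of the 4 regions by limma. Other subunits of the proton pump, 16 measured, had medians between -0.06 in CA3 and -0.0003 in CA1, with Tcirg1, a subunit of the pump first known from osteoclasts, at 0.33 ± 0.11 in CA3. Genes of lysosome biogenesis and sorting, 48 measured, had medians between -0.0069 in CA1 and 0.05 in DG. Hps1, of a complex that sorts cargo to lysosome-related organelles, was at 0.20 ± 0.07 in CA3. Cystatins and other inhibitors of cathepsins had medians between 0.02 in whole hippocampus and 0.13 in CA3 over 6 or 7 genes, with Serpinb1a at 0.43 ± 0.10 in CA3 (adjusted p = 0.0579). Autophagy genes, 27 to 29 measured, had medians between 0.001 in DG and 0.07 in CA1, with Becn1 at -0.21 ± 0.08 in CA3. Without CA1 adult replicate 4 the CA1 medians were -0.02 for the other pump subunits, -0.03 for biogenesis and sorting, 0.14 for the inhibitors and -0.05 for autophagy genes, where 12 were above 0 and 15 below. At an unadjusted p under 0.05 each of these lists held at most 3 members in 1 direction in CA3, where 7.32% of all probes were higher and 6.49% lower. The most was 3 of 48, lower, for biogenesis and sorting.

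Markers of cell types moved in CA3 and whole hippocampus, where members were called. Summed microglial markers also stood apart between adult and aged arrays in CA1, where 0 members were called. In CA3 all 16 measured microglial markers were above 0, with a median of 0.37, where 50.6% of all probes were above 0. The highest, Fcgr2b, was not called. It was detected on 0 adult and 5 aged arrays, so it passed the detection filter through the aged arrays alone, which favours a rise. Of the 16 markers 7 were called higher (0.78% of all probes). Among them were C1qa at 0.51 ± 0.06 and Trem2 at 0.52 ± 0.07. The summed intensity of the 16 markers ran from 8574 to 9670 in adult, from 11676 to 12493 in intact and from 10677 to 11581 in impaired CA3 arrays, so that aged and adult arrays did not overlap. The impaired sums also lay below all intact ones. In impaired against intact rats 14 of the 16 markers were below 0, where 4982 of 9873 probes were. At an unadjusted p under 0.05 (limma) 6 were lower, where 290 of all probes were, and 0 were called. Ptprc was detected on 0 subregion arrays. Gfap, the filament protein of astrocytes, rose in CA3 by 0.68 ± 0.08, while 6 of the 11 astrocyte markers were above 0 and 5 below, with a median of 0.11. Hapln2, of oligodendrocytes, rose by 0.53 ± 0.10, with 13 of 14 markers above 0 and a median of 0.14. Ogn, from the list of meninges and fibroblasts, rose by 0.45 ± 0.10, with 5 of 8 above 0 and a median of 0.07. The neuronal Syn1 fell, at -0.37 ± 0.08, where 13 of 15 neuronal markers were below 0. The part of these shifts in the CA3 values of Npc2, Ctsc and Cd63 was not tested.

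In whole hippocampus Trem2 was the 1 microglial marker called higher, at 0.37 ± 0.08, where 0.289% of all probes were. All 16 measured microglial markers were above 0 there (47.5% of all probes), with a median of 0.23. Of these, Fcgr2b and Tmem119 were each detected on 0 adult and 6 aged arrays, so they passed the filter through the aged arrays alone. The sum of the 16 markers ran from 7524 to 8733 in adult, from 7343 to 10388 in intact and from 8921 to 17011 in impaired arrays. Impaired replicate 5 was the highest at 17011, with the next at 10889, and Npc2 kept its call without any single array of whole hippocampus. Gfap rose by 0.45 ± 0.08, where 7 of 11 astrocyte markers were above 0 with a median of 0.02. Igf2, from the list of meninges and fibroblasts, was called lower at -0.66 ± 0.14, where 6 of 7 were below 0 with a median of -0.19. In CA1, where 0 members were called, the microglial sum ran from 8914 to 11638 in adult and from 12355 to 15831 in aged arrays, without overlap. Without adult replicate 4 all 18 measured microglial markers there were above 0, with a median of 0.37. Fcgr2b and Tmem119 passed the filter there through 5 aged arrays each and 0 adult ones. In DG, where 0 members were called, 10 of 14 microglial markers were above 0 with a median of 0.09, and the sums overlapped, from 6752 to 9792 in adult and from 6682 to 9356 in aged arrays. Cx3cr1 passed the filter there through 5 aged arrays and 0 adult ones. Of the choroid plexus markers, 7 of 10, Folr1 and Kl among them, were detected on 0 arrays of each subregion. In whole hippocampus Ttr, the abundant transthyretin of that tissue, differed by -1.76 ± 0.57 (adjusted p = 0.414), and the summed choroid plexus markers ran from 5908 to 15487 in adult and from 4836 to 7276 in aged arrays. The part of these cell type shifts in the lysosomal values was not tested.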

How the data were processed

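Hippocampal RNA was measured on 60 Illumina bead arrays, grouped by region and age group as the labels give them. Per the labels' protocols, the RNA was made into biotinylated cRNA. Per the file headers, the deposited non-normalized table gives 2 columns per array. The first is the average bead intensity on a linear scale, and the second the deposited detection p-value. The authors' second deposited table holds processed intensity values, a linear function of the raw signal within each array. The software behind it is not given in the sources used here, and which background was subtracted is unknown. Processed medians per array ran from 13.2 to 33.38, and raw medians from 54.45 to 128.46. A further 3174 lines held no probe. 0 columns of values lacked a sample.

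The deposited signals were turned into log2 values with neqc of limma 3.58.1 in R 4.3.3 (with the negative controls' mean and spread inferred from detection, offset 16, quantile normalization over all arrays). A probe entered the tests of a subregion if its detection p-value was under 0.01 on 4 or more arrays, and those of whole hippocampus if on 6 or more. Symbols were brought up to date with RefSeq's gene table (GRCr8), where 10164 probes had a current symbol, 5050 matched a synonym, 7192 were kept and 117 had none. Npc1 was read from the probe the file calls Cdig2, a synonym there. For each region, lmFit and eBayes were run on the 3 groups, and whole hippocampus had a slide term. The adult level was subtracted from the average of both aged groups. All tests of a difference were two-sided. Adjustment followed Benjamini and Hochberg over every probe tested. The subregion test was an F test in 1 fit of 36 arrays. The fits were tested on simulated data. A gene not detected on any array of 1 group has a fold given as a lower bound against the detection floor of those arrays. Members were matched and figures drawn in Python 3.11.15 (numpy 2.4.6, pandas 2.3.3, matplotlib 3.10.9).

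The members and lists were chosen with earlier results of these data known. Arrays were described for each called gene, for the 3 smallest p-values where a comparison called none, and for 8 fixed genes, which were Npc2, Ctsd, Ctsb, Ctss, Lamp1, Lamp2, Psap and Hexa. The highest and lowest difference of a region were named, and from other lists at most 4 called genes or the 1 with the smallest p, the latter printed for some lists and regions. Alternatives changed the background correction, normalization, filter, spread estimate, probe choice, slide term or arrays used.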

Additional observations from a re-analysis of the deposited data

Results flagged for a closer look

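A gap test between the lowest or highest array of a group and its nearest neighbour, divided by the range of the group, was run on 141 groups of 4 to 9 arrays, for the members with values per array. It marked 13, and chance marks about 1 in 20 groups. Of these, 5 were CA1 adult replicate 4, which was the lowest of its 4 arrays for Npc2 (10.57 against 11.85 to 12.09, ratio 0.837), Ctsb (10.62, ratio 0.869), Lamp1 (10.35, ratio 0.948), Psap (7.98, ratio 0.937) and Hexa (6.72, ratio 0.855). This array had the lowest share of detected probes, 22.2%.

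In CA3, Cd63 was highest in adult replicate 1 (9.16 against 8.98 to 8.99, ratio 0.906) and Lamp2 in impaired replicate 1 (10.90, ratio 0.903). In DG, Ctsh was lowest in intact replicate 1 (6.28, ratio 0.933) and in impaired replicate 2 (6.83, ratio 0.883), Ctss was highest in impaired replicate 1 (12.59, ratio 0.943) and Lamp1 in adult replicate 2 (12.51, ratio 0.852). In whole hippocampus, Atp6v1a was lowest in impaired replicate 9 (10.54, ratio 0.675) and Ctss in adult replicate 2 (11.83, ratio 0.68).

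For a pair of genes, all aged arrays lay on opposite sides of the adult mean in different subregions. Mcoln1 was above it in CA3 and below it in CA1, and the F test between subregions gave an adjusted p = 0.873 (limma). Its CA1 direction rests on CA1 adult replicate 4, without which Mcoln1 was at 0.51 ± 0.20, with 7 of 8 aged arrays above the adult mean. Man2b1 was above it in CA1 and below it in DG, with an adjusted p = 0.686 (limma), so neither difference passed the threshold. Without CA1 adult replicate 4, Man2b1 was at 0.27 ± 0.10 in CA1, with 7 of 8 aged arrays above the adult mean.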

How the results depend on the processing

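The count of called members was recomputed from uncorrected signals, from the processed values, after normalizing regions separately, without the detection filter, for probes detected on every array, with 1 fit over all arrays, array weights, a trended and robust prior, a replicate block, no slide term, the mean over a gene's probes, and without each array in turn. Array weights stopped before convergence in 1 region. No called result reversed, but medians for impaired against intact turned sign, in CA1 (0.03) to -0.02 without intact replicate 4, in CA3 (-0.02) to 0.004 without intact replicate 1 and in DG (0.05) to -0.03 with the processed values. In that DG setting the median over all probes was -0.05. The median over the members in whole hippocampus lay between -0.07 and -0.0033. In CA1 the aged against adult count was 0, and 15 in 1 fit over all arrays (1985 of all probes in place of 5). With CA1 adult array 4 left out of that fit, chosen after seeing the data, it was 1. In CA3 it was 3, and 0 and 1 in those 2 fits (12 and 28 of all probes in place of 90), and 1 to 3 without single arrays. In whole hippocampus it was 1, 2 with array weights (Npc1 and Npc2), and 0 within slide 2 or slide 4 alone. The causes were not tested. Over all probes, the CA1 count of 5 was 67 in the fit without CA1 adult array 4, 26 with array weights, 1 for probes detected on every array and 3 to 11 without single arrays. That of CA3 was 43 without adult replicate 4, that of DG went from 3 to 8 and 11 in those 2 fits, and that of whole hippocampus from 33 to 17 in 1 fit, 91 with array weights, 21 without adult replicate 6, and 8 and 1 within the slides. The subregion count of 1 lay between 0 and 7. Counts of called members for impaired against intact and for the subregion difference were 0 in every setting run. Called members kept their direction in every setting. Npc2 lay between 0.45 and 0.54 in CA3 and 0.42 and 0.53 in whole hippocampus, Ctsc between 0.27 and 0.54 and Cd63 between 0.30 and 0.37. No label says what a replicate number stands for, and the numbers were not treated as pairs (20 of 36 same-numbered correlations across subregions over 0.1, lowest -0.583, and the best match had the same number in 24 of 72). With the replicate block the counts were 0 in CA1, 2 in CA3 (Cd63 at adjusted p = 0.072), 0 in DG and 1 in whole hippocampus. Signal over background limits Lipa, which was not detected. Standard errors were widest in CA1 and DG.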
